A study of Mus musculus with 6 samples.

Results

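The genes that release calcium in skeletal muscle and pump it back were examined in hind limb muscles of Baf155WT and Baf155ΔMF mice. They were chosen by symbol and comprise the excitation-contraction coupling genes *Ryr1*, *Cacna1s* and *Cacnb1*, the SERCA pumps *Atp2a1* and *Atp2a2*, the pump inhibitors *Sln* and *Pln*, and the calcium buffers *Casq1*, *Casq2* and *Pvalb*. All 10 genes are in the deposited table of 20632 genes, and all 10 passed the filter on low counts that left 12116 genes. Baf155WT mice carry *Baf155* f/f without Cre and are called wild type in the labels. Baf155ΔMF mice carry *MCK*-Cre with *Baf155* f/f and are labelled Baf155 -/-. All were unexercised males of 3 months on a C57BL/6 background (C57BL/6J in the methods of the study), with 3 mice per genotype and 1 library per mouse. *MCK*-Cre is driven by the muscle creatine kinase promoter, which is active in skeletal and cardiac muscle fibers, so the other cells of whole muscle keep the floxed gene. The values are estimated read counts per 1000000 counts of the TMM-scaled library (CPM), and each gene was tested for a genotype difference in edgeR together with all other genes that passed the filter.

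In a muscle fiber, depolarization moves the voltage sensor in the transverse tubule, a calcium channel made of a pore subunit, a β subunit and further subunits. The sensor opens the ryanodine receptor, calcium leaves the sarcoplasmic reticulum, and the fiber contracts. SERCA pumps then return calcium to the sarcoplasmic reticulum, where calsequestrin binds it, while parvalbumin binds calcium in the cytosol of fast fibers and speeds relaxation. Fast and slow fibers use different forms of the pump and of calsequestrin, and the small membrane peptides sarcolipin and phospholamban lower the calcium affinity of the pump.

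The targeted gene *Smarcc1*, which encodes Baf155, had 23.4, 19.5 and 17.0 CPM in the Baf155WT mice and 7.05, 6.54 and 7.72 CPM in the Baf155ΔMF mice (log2 fold change -1.49 ± 0.15, SE, with an edgeR adjusted p of 0.00907). The genotypes did not overlap. The adjusted p was 0.0533 without the first MS13 Baf155ΔMF mouse, 0.0678 without the second and 0.0616 without the first MS15 mouse. In every series of values the Baf155WT mice are given in the order MS13, MS15, MS15 and the Baf155ΔMF mice in the order MS13, MS13, MS14. These are the prefixes of the sample titles, and what they mean is not stated in the labels. Outside MS13, prefix and genotype cannot be told apart. The MS15 mice stood apart. Both lay above or both below the other 4 mice in 34.6% of all genes tested. Summed over 3 leukocyte markers, expression was 38.2 and 32.5 CPM in the MS15 mice and 13.4 to 17.0 CPM in the other 4. Summed over 3 endothelial markers it was 151 and 160 CPM in the MS15 mice and 208 to 232 CPM in the others. Between genotypes, 3 of the 3 leukocyte markers were lower and 2 of the 3 endothelial markers higher in Baf155ΔMF muscle at an unadjusted p under 0.05. At the same limit, 1 of 3 adipocyte (*Adipoq*), 1 of 3 fibro-adipogenic (*Dcn*) and 2 of 4 blood markers (*Hbb-bs* and *Hbb-bt*) were lower. Among all genes tested, 4.60% were lower and 3.35% higher at this limit. The fibro-adipogenic markers did not move together, with a log2 fold change of -0.43 for *Dcn* and 0.36 for *Col1a1*. None of the markers named here had an adjusted p under 0.05 in edgeR. Adipocyte markers summed to 34.5 and 30.1 CPM in the MS15 mice and 13.8 to 21.4 CPM in the others. Blood markers summed to 610 to 1204 CPM in the Baf155WT and 365 to 793 CPM in the Baf155ΔMF mice. The muscle fiber label held in each mouse, with 107487 to 120147 CPM summed over 8 fast fiber markers and 623 to 932 CPM over 7 slow fiber markers. The 6 cardiomyocyte markers summed to 4.68 to 7.65 CPM. *Myl7* had 0 counts in 5 of 6 mice, *Nppa*, *Tnni3* and *Ryr2* had at most 6 counts in any mouse, and *Myh6* had 10 to 18 counts. *Myl4* had 4.57, 5.59 and 5.53 CPM in the Baf155WT mice and 3.84, 3.32 and 2.81 CPM in the Baf155ΔMF mice, with all Baf155ΔMF mice lower (log2 fold change -0.65, unadjusted p = 0.00678, adjusted p = 0.601 from edgeR). In whole muscle RNA, fewer cells of a type and less RNA per cell cannot be told apart.

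Fast forms far exceeded slow forms. Per kilobase of exon, averaged over the 6 mice, *Pvalb* was highest with 8092 CPM per kb, followed by *Atp2a1* with 3837 and *Casq1* with 1516 CPM per kb. *Ryr1* and *Cacna1s*, the release channel and its voltage sensor, had 186 and 184 CPM per kb. *Atp2a2* had 37.2, *Cacnb1* 32.1 and *Casq2* 13.7 CPM per kb. *Pln* and *Sln* were lowest, with 2.16 and 2.07 CPM per kb. The range over the 6 mice overlapped that of the next gene in this order for *Ryr1* and *Cacna1s*, for *Atp2a2* and *Cacnb1*, and for *Pln* and *Sln*. It did not overlap at the other steps. Dividing by the longest coding transcript in place of all exons exchanged *Ryr1* and *Cacna1s* and kept the rest of the order. The deposited estimates of all 10 genes were whole numbers in each mouse. Whether the counting used strand is not given in the sources used here, so reads of *Ryr1*, *Cacna1s*, *Cacnb1*, *Atp2a1*, *Atp2a2*, *Casq1* and *Pln* and of the genes annotated on their other strand may not be separate.

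**Figure D1:**
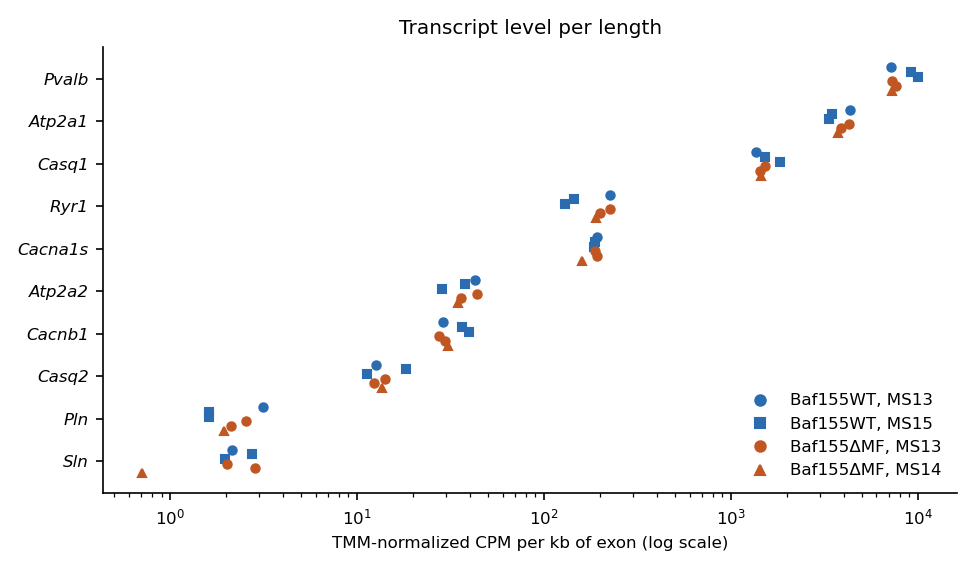
TMM-normalized CPM per kb of exon (log scale) of each gene, with 1 point per mouse, colored by genotype and shaped by title prefix. The genes run from *Pvalb*, with 7132 to 10031 CPM per kb, to *Sln*, with 0.71 to 2.84 CPM per kb.

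No gene of the 10 had an adjusted p under 0.05 between genotypes in edgeR, where 0.0248% of all genes tested did. At an unadjusted p under 0.05, 1 of 10 was found in edgeR (*Cacnb1*), where 7.95% of all genes tested passed. DESeq2 found 0 at the adjusted and 2 (*Cacnb1* and *Pvalb*) at the unadjusted limit, where 0.182% and 4.99% of genes passed, and limma-voom found 0 at both, where 0.0413% and 7.76% passed. The genotypes overlapped in all 10 genes. Over all genes tested they were separate in 10.8% (all Baf155ΔMF mice lower in 5.57%, all higher in 5.20%). The overlap thus cannot be called particular to these 10 genes. The log2 fold change was above 0 in 4 genes and below 0 in 6 (50.2% of all genes tested were below 0), with a median of -0.08 against -0.00095 over all genes tested. For one gene alone, 3 mice against 3 allow no p below 0.10 in a two-sided exact permutation test.

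**Figure D2:**
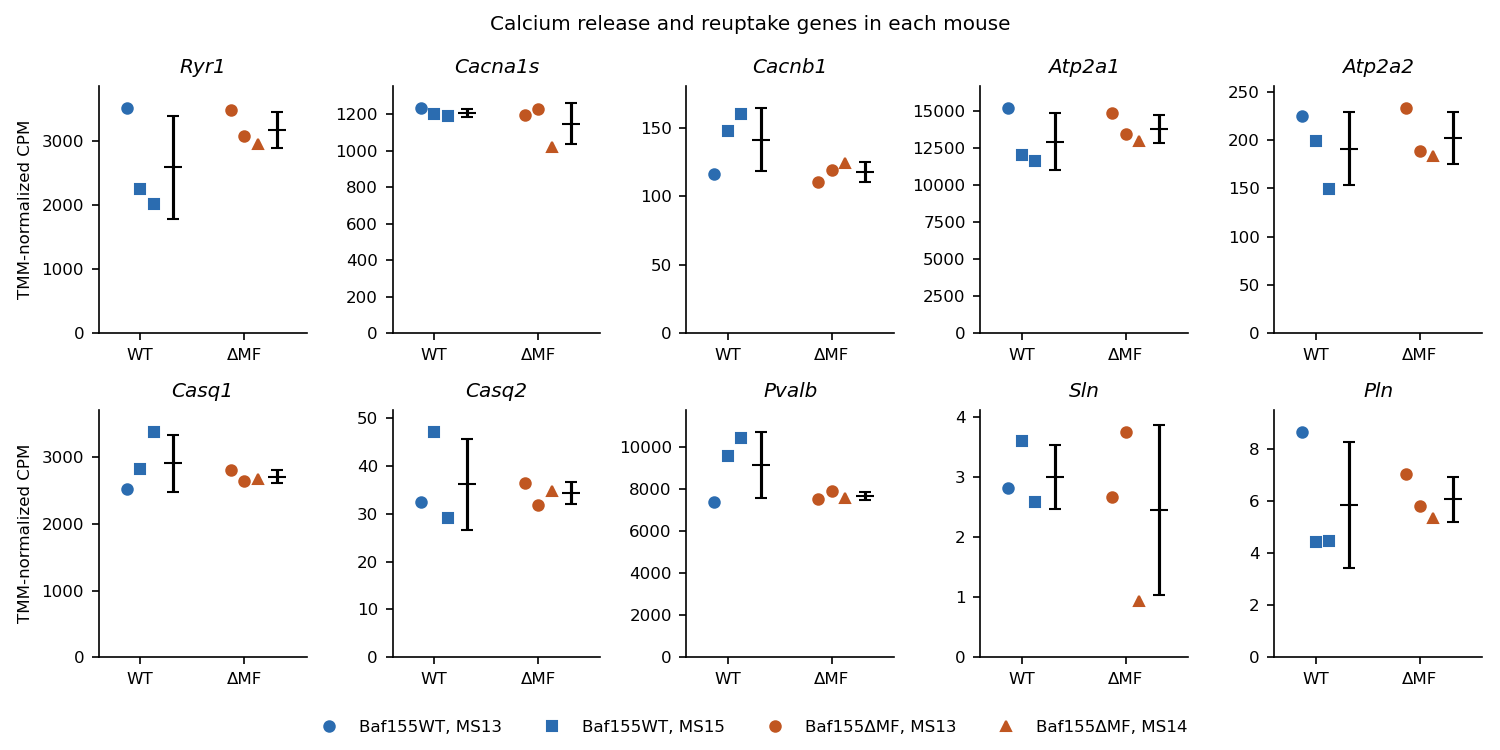
TMM-normalized CPM of the 10 genes in each mouse, with genotype on the x axis, 1 point per mouse shaped by title prefix, and mean ± SD (n = 3) in black. In *Ryr1*, *Atp2a1* and *Pln* the 2 MS15 mice lie below the other 4 mice, and in *Cacnb1*, *Casq1* and *Pvalb* they lie above them.

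*Ryr1* encodes the ryanodine receptor of skeletal muscle, the channel through which the sarcoplasmic reticulum releases calcium. It spans chromosome 7 of GRCm38 from 29003344 to 29125179 with 15445 exonic bases, the longest of the 10 genes, and overlaps 2 antisense transcripts. Its level was 3499.7, 2246 and 2008 CPM in the Baf155WT mice and 3479.8, 3069.9 and 2942 CPM in the Baf155ΔMF mice. The MS13 Baf155WT mouse was the highest of all 6, and the MS15 mice were the lowest. The means were 2584 ± 802 CPM in Baf155WT and 3164 ± 281 CPM in Baf155ΔMF muscle (SD, n = 3), a log2 fold change of 0.29 ± 0.19 (SE, with an edgeR adjusted p of 0.668). The 95% interval ran from 0.923-fold to 1.62-fold. Without the MS13 Baf155WT mouse the log2 fold change was 0.57 (adjusted p = 0.00666), in a fit that called 7.77% of all genes, and without both MS15 mice it was -0.15 (adjusted p = 0.999).

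*Cacna1s* encodes the pore subunit of the voltage sensor, on chromosome 1 from 136052750 to 136119822. Its level was 1232, 1202 and 1190.5 CPM in the Baf155WT mice and 1195, 1229 and 1023 CPM in the Baf155ΔMF mice. It was the steadiest gene of the 10 among Baf155WT mice, with a coefficient of variation of 1.77%, and the MS14 mouse was the lowest. With all mice, the log2 fold change was -0.07 ± 0.10 (SE, with an edgeR adjusted p of 0.849), with a 95% interval from 0.811-fold to 1.12-fold.

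*Cacnb1* encodes the β subunit that brings the pore subunit to the membrane, on chromosome 11 from 98001508 to 98023034. Its level was 116, 148 and 160 CPM in the Baf155WT mice and 110, 119 and 124 CPM in the Baf155ΔMF mice. The MS15 mice were the highest, and the MS13 Baf155WT mouse lay within the range of the Baf155ΔMF mice. The genotypes differed by a log2 fold change of -0.26 ± 0.12 (SE, with an unadjusted p of 0.0489 and an adjusted p of 0.622 in edgeR), with a 95% interval from 0.694-fold to 0.999-fold. It was -0.39 without the MS13 Baf155WT mouse (adjusted p = 0.0175) and 0.017 without both MS15 mice (adjusted p = 0.999).

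Within each library, *Ryr1* had between 1.69 and 2.91 times the counts of *Cacna1s*. The log2 ratio was 1.51, 0.90 and 0.75 in the Baf155WT mice and 1.54, 1.32 and 1.52 in the Baf155ΔMF mice. The MS13 Baf155WT mouse lay within the Baf155ΔMF range, and the genotypes overlapped. Per kilobase, the mean levels of *Ryr1* and *Cacna1s* were 1.01-fold apart, and *Cacna1s* was 5.72-fold above *Cacnb1*.

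*Atp2a1* encodes SERCA1, the calcium pump of fast fibers, on chromosome 7 from 126445858 to 126463108, where it overlaps *Rabep2* on the other strand. By mean CPM it ranked 9 among the 12116 genes tested. Its level was 15149, 12018 and 11589 CPM in the Baf155WT mice and 14845, 13451 and 12988 CPM in the Baf155ΔMF mice. The MS15 mice were again the lowest and the MS13 Baf155WT mouse the highest. The means were 12918 ± 1943 and 13761 ± 967 CPM, a log2 fold change of 0.09 ± 0.14 (SE, with an edgeR adjusted p of 0.860). The 95% interval ran from 0.860-fold to 1.32-fold.

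*Atp2a2* encodes SERCA2, the pump of slow fibers and heart, on chromosome 5 from 122453513 to 122502225. Its level was 224, 199 and 150 CPM in the Baf155WT mice and 233, 189 and 184 CPM in the Baf155ΔMF mice. An MS15 mouse was the lowest, and the other MS15 mouse lay within the Baf155ΔMF range. The log2 fold change was 0.08 ± 0.15 (SE, with an edgeR adjusted p of 0.886), with a 95% interval from 0.845-fold to 1.32-fold. Each library held between 60.5 and 77.4 times as many counts of *Atp2a1* as of *Atp2a2*, and per kilobase the mean levels were 103-fold apart. The log2 ratio of *Atp2a2* over *Atp2a1* was -6.09 ± 0.18 in Baf155WT and -6.10 ± 0.09 in Baf155ΔMF muscle (SD, n = 3), a difference of -0.0077. The balance of slow and fast pump transcripts thus differed between genotypes by less than the spread between mice.

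Both pump inhibitors rested on few counts. *Sln*, which encodes sarcolipin, lies on chromosome 9 from 53850164 to 53854560 and had 29, 47 and 29 counts in the Baf155WT mice and 25, 36 and 8 counts in the Baf155ΔMF mice. This corresponded to 2.82, 3.60 and 2.59 CPM against 2.67, 3.74 and 0.936 CPM. The MS14 mouse was the lowest, while the other Baf155ΔMF mice lay within or just above the Baf155WT range. Its log2 fold change was -0.28 ± 0.37 (SE, with an edgeR adjusted p of 0.833), and the 95% interval, from 0.469-fold to 1.44-fold, was the widest of the 10 genes. Without the MS14 mouse the log2 fold change was 0.09. *Sln* was the only one of the 10 genes with an SD of log2 CPM over 0.5 across the 6 mice. The genes tested with the closest profile were *Zscan2*, *Trmt13* and *AU041133*, with root mean square differences of 0.18, 0.22 and 0.25 in centered log2 CPM over 6 mice. These had 4 to 25 counts per mouse, so counting error is large in each of them.

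*Pln*, which encodes phospholamban, the inhibitor of SERCA2 in heart and slow muscle, lies on chromosome 10 from 53337667 to 53345987, inside a region that also holds *Cep85l* on the other strand. Its level was 8.65, 4.44 and 4.46 CPM in the Baf155WT mice and 7.05, 5.81 and 5.38 CPM in the Baf155ΔMF mice. The Baf155ΔMF mice lay between the MS13 and the MS15 Baf155WT mice. With all mice, the log2 fold change was 0.08 ± 0.26 (SE, with an edgeR adjusted p of 0.940), with a 95% interval from 0.708-fold to 1.57-fold. It was 0.45 without the MS13 Baf155WT mouse (adjusted p = 0.172) and -0.51 without both MS15 mice (unadjusted p = 0.0416, adjusted p = 0.999). The log2 ratio of *Pln* over *Sln* ranged from 0.30 to 2.52 over the 6 mice and overlapped between genotypes. A further pump inhibitor of skeletal muscle, myoregulin (*Mrln*), had 50.6, 64.0 and 74.2 CPM in the Baf155WT mice and 55.7, 63.3 and 51.8 CPM in the Baf155ΔMF mice (log2 fold change -0.14, adjusted p = 0.761 from edgeR).

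The calsequestrins and parvalbumin are the buffers. The 250 bases before the RefSeq start sites (GRCm38.p6) are shown for *Casq1* and *Casq2*, the fast and slow forms of one buffer at very different levels, and for *Pvalb*, the highest gene per kilobase. The *Casq1* window lies at chr1:172219896-172220145 on the minus strand, that of *Casq2* at chr3:102086165-102086414 on the plus strand, and that of the upstream *Pvalb* start at chr15:78206401-78206650 on the minus strand. Capitals mark E-boxes (CANNTG, the letters bound by MyoD family factors) and matches to the MEF2 site, searched on both strands, and no match overlaps another.
Casq1: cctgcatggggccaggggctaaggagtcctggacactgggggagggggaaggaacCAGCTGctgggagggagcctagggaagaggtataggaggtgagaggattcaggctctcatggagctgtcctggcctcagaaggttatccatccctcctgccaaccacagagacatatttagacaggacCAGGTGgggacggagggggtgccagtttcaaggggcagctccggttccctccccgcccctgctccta
Casq2: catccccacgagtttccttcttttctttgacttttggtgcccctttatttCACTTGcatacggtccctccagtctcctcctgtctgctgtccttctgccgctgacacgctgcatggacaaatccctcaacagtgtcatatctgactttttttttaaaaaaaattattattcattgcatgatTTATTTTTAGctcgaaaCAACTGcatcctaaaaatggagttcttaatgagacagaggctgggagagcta
Pvalb: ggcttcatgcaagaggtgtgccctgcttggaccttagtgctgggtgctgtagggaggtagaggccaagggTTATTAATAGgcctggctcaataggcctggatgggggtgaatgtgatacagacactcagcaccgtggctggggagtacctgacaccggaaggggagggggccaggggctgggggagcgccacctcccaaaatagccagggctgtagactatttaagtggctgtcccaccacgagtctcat
*Casq1* and *Casq2* each hold 2 E-boxes and the upstream *Pvalb* window holds none, where 66.2% of the 32851 RefSeq windows of this length hold at least 1. The window of a second *Pvalb* start (chr15:78204238-78204487), not shown, holds 1 E-box, 111 bases before that start, and no MEF2 match. Which of these starts the muscles use was not tested. A MEF2 match stands 69 bases before the *Casq2* start and 180 bases before the upstream *Pvalb* start, and 2.92% of all windows hold one. In the windows of the 8 of 10 genes that matched the table, no other had a MEF2 match. The G and C content was 61.6% for *Casq1*, 41.6% for *Casq2* and 58.4% for the upstream *Pvalb* window.

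*Casq1* encodes the fast calsequestrin, the main calcium store inside the sarcoplasmic reticulum, on chromosome 1 from 172209894 to 172219868. Its level was 2521, 2815 and 3362 CPM in the Baf155WT mice and 2808, 2633 and 2667 CPM in the Baf155ΔMF mice. The MS15 mice were the highest, one of them by a small margin, and the MS13 Baf155WT mouse was the lowest. The genotypes differed by a log2 fold change of -0.10 ± 0.12 (SE, with an edgeR adjusted p of 0.822), with a 95% interval from 0.772-fold to 1.13-fold.

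*Casq2* encodes the slow and cardiac calsequestrin, on chromosome 3 from 102086415 to 102146514. Its level was 32.5, 46.9 and 29.0 CPM in the Baf155WT mice and 36.4, 31.8 and 34.7 CPM in the Baf155ΔMF mice. The 2 MS15 mice were the highest and the lowest of all 6. The log2 fold change was -0.08 ± 0.16 (SE, with an edgeR adjusted p of 0.898), with a 95% interval from 0.740-fold to 1.21-fold. *Casq1* had between 60.0 and 116 times the counts of *Casq2* in each library, and both ends of this range came from MS15 mice. Per kilobase the mean levels were 110-fold apart. The log2 ratio of *Casq2* over *Casq1* was -6.35 ± 0.48 in Baf155WT and -6.30 ± 0.06 in Baf155ΔMF muscle (SD, n = 3), a difference of 0.05.

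*Pvalb*, the calcium buffer of fast fiber cytosol, lies on chromosome 15 from 78191114 to 78206400. It ranked 13 among the genes tested by mean CPM. Its level was 7424, 9603 and 10442 CPM in the Baf155WT mice and 7566, 7929 and 7575 CPM in the Baf155ΔMF mice. The MS15 mice were the highest, and the MS13 Baf155WT mouse was the lowest of all 6. The means were 9157 ± 1558 and 7690.2 ± 207 CPM, a log2 fold change of -0.25 ± 0.14 (SE, with an edgeR adjusted p of 0.635), with a 95% interval from 0.678-fold to 1.04-fold. It was -0.38 without the MS13 Baf155WT mouse (adjusted p = 0.0441) and 0.049 without both MS15 mice (adjusted p = 0.999).

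**Figure D3:**
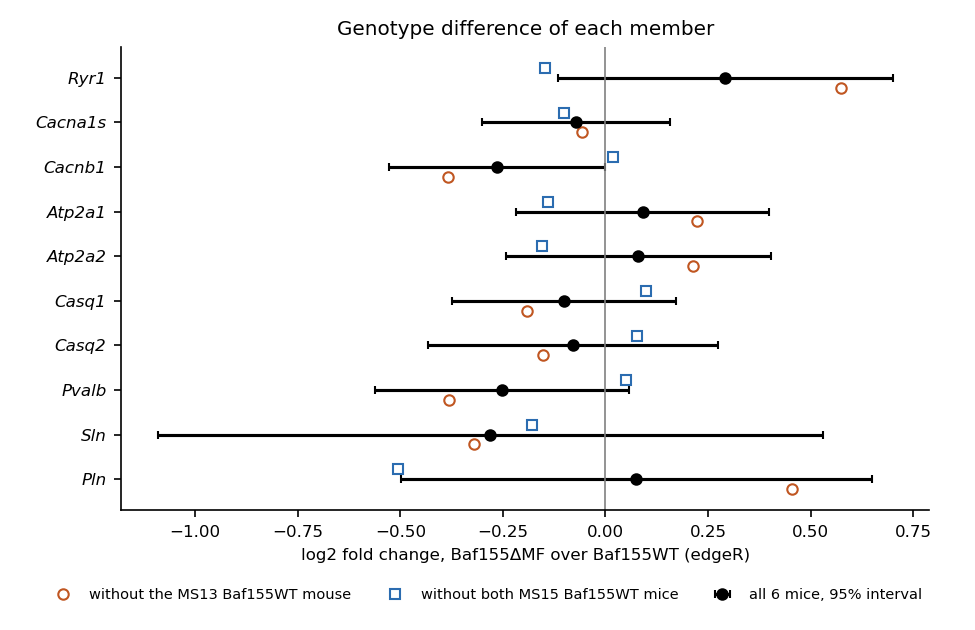
Log2 fold change of each gene, Baf155ΔMF over Baf155WT, with its 95% interval from all 6 mice in black, without the MS13 Baf155WT mouse as open circles and without both MS15 mice as open squares. For *Ryr1* the value is 0.29 with all mice, 0.57 without the MS13 Baf155WT mouse and -0.15 without both MS15 mice.

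The sign of 8 of the 10 differences changed when both MS15 mice were left out, which leaves a single Baf155WT mouse. The share of all genes tested that changed sign was not counted, so 8 of 10 cannot be called particular to these genes. The 2 MS15 mice were both above the other 4 mice in 3 of the 10 genes (*Cacnb1*, *Casq1* and *Pvalb*) and both below in 3 (*Ryr1*, *Atp2a1* and *Pln*). Over all genes tested these shares were 17.5% and 17.0%. Without the MS13 Baf155WT mouse, 3 of the 10 genes had an adjusted p under 0.05 (*Ryr1*, *Cacnb1* and *Pvalb*), where 7.77% of all genes did, and 4 had an unadjusted p under 0.05, where 23.8% did. Without both MS15 mice, 0 of 10 did (1 at an unadjusted p under 0.05, *Pln*), where 0.129% and 2.93% of genes passed. In that fit the single Baf155WT mouse is assumed to vary like the Baf155ΔMF mice.

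Gene length moved with the same split. The median log2 difference between the MS13 and the MS15 Baf155WT mice was -0.17 in the 2369 genes of the shortest of 5 length bins (216 to 1936 exonic bases) and 0.16 in the 2367 genes of the longest (5710 bases and more). *Pvalb* and *Casq1* belong to the shortest bin, with differences of -0.43 and -0.29, and *Ryr1* to the longest, with a difference of 0.72. *Pln*, with 2759 exonic bases, had a difference of 0.94, and *Cacna1s*, in the longest bin, had 0.04. After a trend with length was removed from each library, the genotype log2 fold change was 0.16 for *Ryr1* (adjusted p = 0.783), -0.11 for *Pvalb* (adjusted p = 0.824) and -0.27 for *Cacnb1* (adjusted p = 0.624 from edgeR). The part of leukocyte, endothelial, adipocyte and blood transcripts in these values was not tested.

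**Figure D4:**
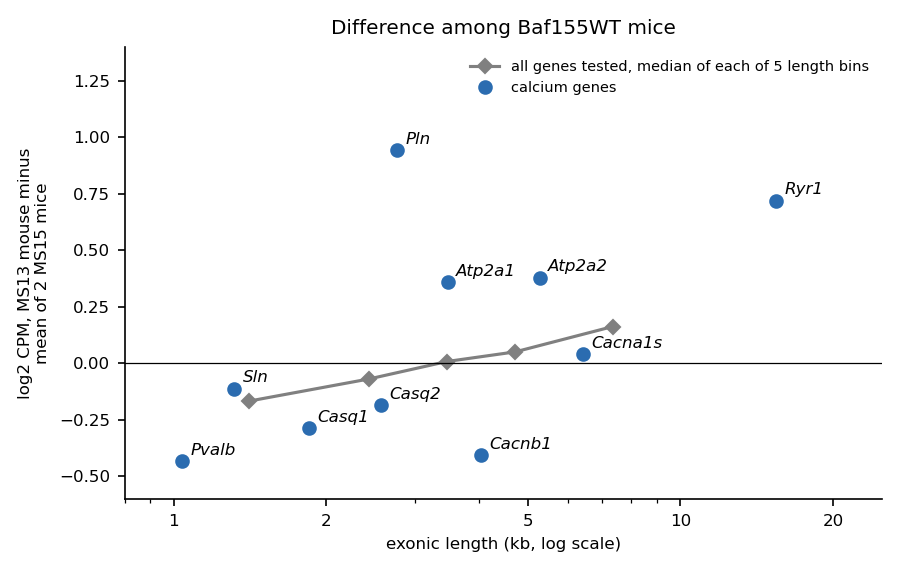
Log2 CPM of the MS13 Baf155WT mouse minus the mean of the 2 MS15 Baf155WT mice (y axis) against exonic length (x axis, log scale) for the 10 genes, with the median of all genes tested in each of 5 length bins in gray. The medians go from -0.17 to 0.16, and the genes go from -0.43 (*Pvalb*) to 0.94 (*Pln*).

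Slow fiber transcripts were compared beside the slow forms. *Myh7*, the slow myosin heavy chain, had 298, 249 and 156 CPM in the Baf155WT mice and 333, 244 and 249 CPM in the Baf155ΔMF mice (log2 fold change 0.23, adjusted p = 0.741 from edgeR). The MS15 mouse with the least *Myh7* also had the least *Atp2a2* and *Casq2*. The mouse with the most *Myh7* also had the most *Atp2a2*, but not the most *Casq2*. The other MS15 mouse, with 249 CPM of *Myh7*, had the most *Casq2* (46.9 CPM) and the least *Pln* (4.44 CPM). None of the 7 slow fiber markers passed an unadjusted p of 0.05, and their median log2 fold change was -0.0096. The 8 fast fiber markers had a median log2 fold change of -0.10. Of these, 6 were below 0, as were 50.2% of all genes tested, and the 2 above 0 were *Myh4* and *Myh1*. Among the fast myosins, *Myh4* had a log2 fold change of 0.0089, *Myh1* of 0.49 (unadjusted p = 0.00672, adjusted p = 0.601) and *Myh2* of 0.38 (unadjusted p = 0.0294, adjusted p = 0.601). Without the MS13 Baf155WT mouse these were 0.63 for *Myh1* (adjusted p = 0.00789) and 0.58 for *Myh2* (adjusted p = 0.00346 from edgeR). Without both MS15 mice they were 0.25 and 0.034, and a covariate for the prefix gave 0.29 and 0.070.

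The other genes of calcium handling were taken from 6 lists with 61 genes, of which 60 were in the table and 58 were tested. None had an adjusted p under 0.05 in edgeR, and 1 higher and 2 lower genes had an unadjusted p under 0.05, where 3.35% and 4.60% of all genes tested did. The median log2 fold change was 0.01, with 30 genes above 0 and 28 below 0. It was -0.01 over 19 genes of triad coupling, -0.18 over 6 of store-operated entry, 0.06 over 11 other channels, pumps and exchangers, 0.03 over 8 of mitochondrial uptake and 0.13 over 13 of calcineurin and CaMKII signalling.

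*Rcan1*, which encodes an inhibitor of the calcium-activated phosphatase calcineurin and is itself induced by calcineurin, had the smallest p of the 58. Its level was 136, 150 and 138 CPM in the Baf155WT mice and 69.0, 98.7 and 89.9 CPM in the Baf155ΔMF mice. The genotypes did not overlap, and the MS13 Baf155WT mouse lay with the MS15 mice. Its log2 fold change was -0.72 ± 0.12 (SE, with an unadjusted p of 0.000129 and an adjusted p of 0.173 in edgeR). It was -0.66 without both MS15 mice and -0.69 with the title prefix as a covariate. Over the alternatives the adjusted p ranged from 0.000177 with DESeq2 to 0.542, and it was 0.00238 without the MS13 Baf155WT mouse. The other 12 genes of the calcineurin and CaMKII list did not pass an unadjusted p of 0.05. Of the 13 genes, 10 had a log2 fold change above 0 and 3 below 0, where 50.2% of all genes tested were below 0. *Rcan2* and *Ppp3r1*, named after their values were seen, had 0.13 and 0.17. In both, all Baf155ΔMF mice were higher, as in 5.20% of all genes tested. *Camk2a*, a calcium-dependent kinase, had a log2 fold change of 0.08, the related kinase *Camk2g* had -0.05, and the catalytic calcineurin subunit *Ppp3ca* had 0.06.

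Of the 19 genes of triad structure and coupling, *Tmem38b*, which encodes a potassium channel of the sarcoplasmic reticulum, had an unadjusted p under 0.05. Its level was 38.0, 30.3 and 33.9 CPM in the Baf155WT mice and 40.8, 42.5 and 40.8 CPM in the Baf155ΔMF mice. All Baf155ΔMF mice lay above all Baf155WT mice, with a log2 fold change of 0.28 (unadjusted p = 0.0201, adjusted p = 0.601 from edgeR), which was 0.12 without both MS15 mice and 0.37 without the MS13 Baf155WT mouse (adjusted p = 0.0373). The related channel gene *Tmem38a* had a log2 fold change of -0.03. The calcium-binding sarcalumenin gene *Srl* had -0.0044 and triadin (*Trdn*), which anchors calsequestrin to the release channel, had 0.25 (adjusted p = 0.633).

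In store-operated entry, which refills the sarcoplasmic reticulum from outside the cell, the channel gene *Orai3* had 13.99, 19.3 and 17.3 CPM in the Baf155WT mice and 12.5, 14.95 and 13.1 CPM in the Baf155ΔMF mice. The MS13 Baf155WT mouse lay within the Baf155ΔMF range. With all mice, the log2 fold change was -0.32 (unadjusted p = 0.0419, adjusted p = 0.611 from edgeR), and -0.05 without both MS15 mice. Of the 6 genes of this list, 5 had a log2 fold change below 0, as did 50.2% of all genes tested. It was -0.10 for *Saraf*, a regulator of this entry, 0.04 for the calcium sensor *Stim1* and -0.16 for its relative *Stim2*, in which all Baf155ΔMF mice were lower. The channel gene *Orai1*, named after its values were seen, had -0.20 with all Baf155ΔMF mice lower (unadjusted p = 0.0690, adjusted p = 0.622 from edgeR). None of the 8 genes of mitochondrial uptake passed an unadjusted p of 0.05, nor did the 11 tested genes of other release channels, pumps and exchangers. The plasma membrane pump gene *Atp2b1* had a log2 fold change of 0.17.

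**Figure D5:**
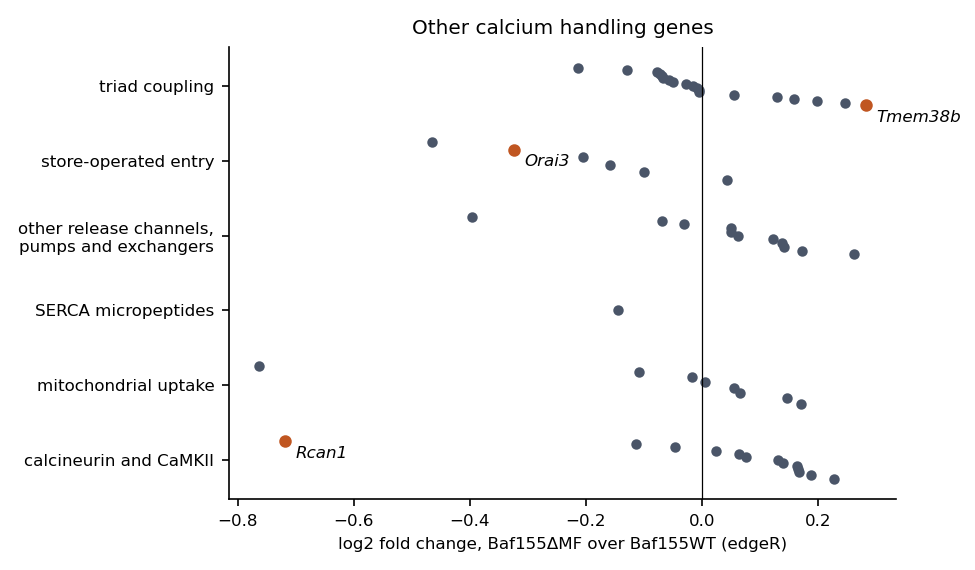
Log2 fold change, Baf155ΔMF over Baf155WT, of the 58 tested genes in the 6 other lists of calcium handling, with 1 point per gene. The 3 genes with an unadjusted p under 0.05 are labelled in orange, and *Rcan1* lies at -0.72.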

How the data were processed

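Muscles of the whole hind limb (tibialis anterior, extensor digitorum longus, gastrocnemius, soleus and quadriceps) were pooled for each mouse, and stranded total RNA libraries were sequenced on an Illumina instrument. The table deposited by the authors holds expected counts (estimated numbers of reads, not normalized) of 20632 genes listed by symbol, with 1 library per mouse. The submitters' processing notes name cutadapt 1.10, Bowtie2 2.2.7, TopHat2 2.1.1, RSEM 1.2.30 and the build GRCm38, without the role of each. The annotation, and whether strand was used in counting, are not given in the sources used here.

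Expected counts were rounded and compared between genotypes in R 4.3.3 with the quasi-likelihood F test of edgeR 4.0.16 on all 6 libraries, without a covariate, after TMM scaling and filterByExpr (minimum count 10, minimum total 15). Benjamini-Hochberg adjustment covered all 12116 genes that passed. The standard error is the absolute log2 fold change divided by the square root of F. The 95% intervals use the degrees of freedom of the fit. CPM was divided by the exonic length of each gene (GENCODE M21 basic set, GRCm38) to compare genes. Upstream sequences are those of RefSeq (GRCm38.p6). The same procedure, run on simulated data for this comparison with 200 of 12116 genes changed 2-fold, recovered 170 of them with 15 false calls. The simulated counts held no difference between title prefixes and no trend with gene length. Changes smaller than 2-fold were not simulated.

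Total counts ranged from 8426022 to 12469335 per mouse. A floor of 3 counts corresponded to 0.23 to 0.351 CPM per library and covers counting error only. Groups follow the genotype label. The members, the gene lists and the rule for named genes (members, *Smarcc1*, genes of the lists at an unadjusted p under 0.05 or with the highest CPM, myosin heavy chains, and the genes closest in profile to a member with an SD of log2 CPM over 0.5) were chosen with earlier results of these data known. Alternatives were other scalings, other filters on low counts, DESeq2 1.42.0, limma 3.58.1 with voom, a robust fit, a covariate for the title prefix, the MS13 mice alone and each mouse left out in turn. Removing a trend with gene length and leaving out both MS15 mice were added after the data were examined. The column of totals over the 6 mice was not used.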

Additional observations from a re-analysis of the deposited data

How the results depend on the processing

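No paired analysis was possible because the number after the title prefix has only 1 value in both genotypes. The title prefix has only MS13 in both. Depth limits *Sln* and *Pln*, which rest on 8 to 89 counts per mouse. *Sln* could not be fitted with at least 10 counts in every library. No member had an adjusted p under 0.05 in the fits other than the one without the MS13 Baf155WT mouse. Where a value moved, the cause was not tested.

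When single mice were removed, 0 to 3 members passed an adjusted p of 0.05 and 0 to 4 members passed an unadjusted p of 0.05. In the same fits, 0 to 2 of the other calcium handling genes passed an adjusted p of 0.05. Of all genes, 0% to 7.77% passed the adjusted and 3.69% to 23.8% the unadjusted limit. The highest counts all came without the MS13 Baf155WT mouse. Members at an unadjusted p under 0.05 numbered 1 in edgeR, 2 in DESeq2, 0 in limma-voom and 0 in the fit with the title prefix. In the same order, 7.95%, 4.99%, 7.76% and 5.08% of all genes passed. Of the other calcium handling genes, 0 passed the adjusted limit in edgeR, while 1 (*Rcan1*) passed it in DESeq2 and 1 (*Rcan1*) when genes with low counts were kept. In the same order, 0.0248%, 0.182% and 0.104% of all genes passed.

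When title prefix was a covariate, the log2 fold change changed sign for *Ryr1* (-0.10), *Atp2a1* (-0.10), *Atp2a2* (-0.090), *Casq1* (0.11), *Casq2* (0.071), *Pvalb* (0.062), *Sln* (0.19) and *Pln* (-0.43). Without both MS15 mice it changed sign for *Ryr1* (-0.15), *Cacnb1* (0.017), *Atp2a1* (-0.14), *Atp2a2* (-0.15), *Casq1* (0.10), *Casq2* (0.078), *Pvalb* (0.049) and *Pln* (-0.51). With each mouse left out in turn it ranged from -0.12 to 0.0078 for *Cacna1s*, from -0.069 to 0.21 for *Atp2a2*, from -0.19 to 0.018 for *Casq1*, from -0.22 to 0.16 for *Casq2*, from -0.72 to 0.090 for *Sln* and from -0.094 to 0.45 for *Pln*. Under the other scalings, filters and tools, and with the trend of gene length removed, no member changed sign. The share of all genes that changed sign was not counted in any fit. The genotype difference of log2 *Pln* over *Sln* was 0.62 with all mice and -0.60 among the MS13 mice alone. The difference of log2 *Ryr1* over *Cacna1s* was 0.41 with all mice, -0.075 among the MS13 mice alone and -0.044 without both MS15 mice.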
